A study of Mus musculus with 8 samples.

Results

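The 10 long non-coding RNAs described here were chosen by name and fall into a snoRNA host class and a nuclear-retained class. The first holds 8 hosts of small nucleolar RNAs (*Gas5*, *Snhg1*, *Snhg3*, *Snhg5*, *Snhg6*, *Snhg8*, *Snhg12* and *Zfas1*), and the second holds *Malat1* and *Neat1*. A row with the gene symbol was present for 9 of the 10, out of 18990 genes in all. *Snhg3* was not analysed here. The libraries came from primary mouse embryonic fibroblasts (MEFs) of C57/BL6 wild-type mice, which had been transduced with lentiviruses for rtTA and for tet-STEMCCA, a cassette from which doxycycline induces OCT4, SOX2, KLF4 and c-MYC. A pool of 3 siRNAs at 40 nM against *Ncor1* (*siNcor1*) or against *Oct4* (*siOct4*) was transfected before induction, and RNA was taken on reprogramming days 3 and 6. This gave 4 groups of 2 biological replicates. All 8 libraries therefore share the cassette, the medium and a transfection, and the cultures are mixtures in which few cells become pluripotent. No library of a non-targeting control was analysed here, so each difference given sets 1 knockdown against the other or 1 day against the other.

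A snoRNA host gene carries snoRNAs in its introns. After splicing, the intron is trimmed down to the snoRNA, while the joined exons of many hosts have no long reading frame and are degraded by nonsense-mediated decay when ribosomes engage them. Box C/D snoRNAs guide ribose methylation and box H/ACA snoRNAs guide pseudouridylation of ribosomal RNA, and several hosts begin with a run of pyrimidines at their 5′ end, as the mRNAs of ribosomal proteins do. *Malat1* is a very abundant transcript of nuclear speckles, the stores of splicing factors. *Neat1* is the scaffold of paraspeckles, nuclear bodies that hold RNA-binding proteins such as NONO and SFPQ.

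In the GENCODE M21 annotation on GRCm38 (mm10), the 7 hosts with a row held 28 snoRNA-class RNAs inside an intron of at least 1 of their transcripts, with 9 in *Gas5*, 8 in *Snhg1*, 4 in *Snhg12*, 3 in *Zfas1*, 2 in *Snhg5* and 1 each in *Snhg6* and *Snhg8*. Their small RNAs are shown because they are what sets these genes apart as a class. The sequences below were taken from GENCODE transcripts, 5′ to 3′ on the strand of the host, and the capitals mark TGATGA near the 5′ end with CTGA near the 3′ end, the letters of boxes C and D, or ACA near the 3′ end, the tail of the H/ACA class. Not all of the 28 hold these letters in these places, as with Snord78 of *Gas5* and Snora44 of *Snhg12*. The sequences shown are from those that do. *Zfas1* carries 3 relatives of 1 family, and *Snhg8* an H/ACA RNA alone.
Snord12 (Zfas1, chr2:167065276-167065365, +): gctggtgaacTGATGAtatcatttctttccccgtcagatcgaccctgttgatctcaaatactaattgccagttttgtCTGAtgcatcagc
Gm25878 (Zfas1, chr2:167063473-167063565, +): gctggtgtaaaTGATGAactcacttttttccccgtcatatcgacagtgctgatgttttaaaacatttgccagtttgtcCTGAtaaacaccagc
Gm23201 (Zfas1, chr2:167064998-167065086, +): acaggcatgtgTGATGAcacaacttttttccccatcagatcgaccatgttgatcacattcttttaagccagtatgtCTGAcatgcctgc
Snora24 (Snhg8, chr3:123507937-123508066, -): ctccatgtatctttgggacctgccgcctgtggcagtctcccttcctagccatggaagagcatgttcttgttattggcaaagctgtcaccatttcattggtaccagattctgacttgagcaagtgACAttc
Snord87 (Snhg6, chr1:9942463-9942549, -): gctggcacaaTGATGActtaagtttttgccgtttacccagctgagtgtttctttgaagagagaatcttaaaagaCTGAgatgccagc
Snord99 (Snhg12, chr4:132310691-132310764, +): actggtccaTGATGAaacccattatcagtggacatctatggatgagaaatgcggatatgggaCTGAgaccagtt
Snora61 (Snhg12, chr4:132310240-132310369, +): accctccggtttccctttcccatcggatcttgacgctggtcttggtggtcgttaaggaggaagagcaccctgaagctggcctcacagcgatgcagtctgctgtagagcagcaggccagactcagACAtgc
Snord47 (Gas5, chr1:161038082-161038158, +): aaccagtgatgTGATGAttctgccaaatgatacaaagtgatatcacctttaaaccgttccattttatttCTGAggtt
Snord50a (Snhg5, chr9:88521529-88521600, -): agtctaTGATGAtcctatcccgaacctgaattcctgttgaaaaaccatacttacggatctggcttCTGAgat
Snord50b (Snhg5, chr9:88521797-88521868, -): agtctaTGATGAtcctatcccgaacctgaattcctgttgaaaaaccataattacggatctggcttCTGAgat

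Snord50a and Snord50b are 72 bases long and differ by 1 substitution, C50A, counted from the 5′ end. *Snhg12* carries both classes, with Snord99 of box C/D and Snora61 of H/ACA. Only Snord87 among these small RNAs has a row of its own, with between 1 and 5 reads in each library. The rows of the members are therefore read as host rows, and they do not measure the snoRNAs separately. Reads of 43 bases in an intron copy of a snoRNA could be counted for the host where an annotated transcript retains that intron. The merged exons of *Snhg1*, *Snhg8*, *Snhg12* and *Zfas1* form 1 block without a gap, so all their snoRNAs lie in sequence annotated as exon. How the counting treated such reads is not given in the sources used here.

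The starts of the hosts are shown for the same reason, as a feature that the choice of genes did not use. Each window, from the RefSeq promoter table on GRCm38.p6, runs from 10 bases before the annotated start to 20 bases from it on the transcribed strand, and capitals mark a run of at least 6 bases that are C or T, searched on that strand alone.
Gas5 (chr1:161035156-161035185, +): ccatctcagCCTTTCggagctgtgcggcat
Gas5, other start (chr1:161034591-161034620, +): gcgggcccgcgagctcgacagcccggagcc
Snhg1 (chr19:8723477-8723506, +): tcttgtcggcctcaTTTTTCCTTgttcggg
Snhg12 (chr4:132308668-132308697, +): ttctcagTCCTTTCTCgcttcatccgcggt
Snhg5 (chr9:88522878-88522907, -): gcggtgaaccgggctcgTTCTTTTacgacg
Snhg8 (chr3:123508317-123508346, -): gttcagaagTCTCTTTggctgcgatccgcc
Zfas1 (chr2:167062924-167062953, +): tgcgccccgggcggccgcaggtctcggctg

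Of 8 starts listed for the hosts, including 2 of *Gas5* and 1 of *Snhg3*, 5 held such a run, and the share among all 32851 RefSeq starts was 28.67%. The longest runs, of 9 bases, were those of *Snhg1* and *Snhg12*. The start of *Malat1* held no run of 6. *Neat1* and *Snhg6* have no start in this table.

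The libraries held between 7735742 and 16445192 reads on genes, with the fewest in replicate 2 of *siOct4* at day 3. The non-coding gene *Gm26917* took 15.5% to 16.6% of the reads at day 3 and 20.3% to 29.1% at day 6. The members took between 0.278% and 0.426% of the reads of a library. *Ncor1* was 1.67 times lower in *siNcor1* than in *siOct4* at day 3 (adjusted p = 0.0139, limma) and differed by −0.04 on the log2 scale at day 6 (adjusted p = 0.815). *Pou5f1*, the gene of OCT4, was not called lower in *siOct4*, with a difference of −0.08 on the log2 scale at day 3 (adjusted p = 0.941, limma). At day 6 *Pou5f1* was called higher in *siOct4*, by 1.78 on the log2 scale or 3.42 times (adjusted p = 0.000109, limma). Its log2-cpm values were 7.63 and 7.68 in *siNcor1* and 7.53 and 7.62 in *siOct4* at day 3, and 7.55 and 7.32 against 9.45 and 8.97 at day 6, where reads of the induced cassette could be counted on the same gene. An siRNA acts for a limited time, and no library here was taken before day 3, so *siOct4* below names the libraries that carry that label. Fibroblast markers were present in every library, with a summed level of 7244 to 7663 CPM in *siNcor1* and 10040 to 11410 CPM in *siOct4* at day 3, and 4763 to 4832 CPM against 2660 to 2675 CPM at day 6. Single markers did not all follow these sums. From day 3 to day 6 in *siNcor1*, 2 of the 6 were called higher and 2 lower, with a median of −0.15 on the log2 scale. Of all genes tested, 13.8% were called higher and 20.9% lower there. *Thy1* went from 7.82 and 7.52 to 8.84 and 8.77 log2-cpm, and *Col1a1* from 11.90 and 11.82 to 10.64 and 10.78. At day 6, 6 of the 6 fibroblast markers were lower in *siOct4*, and the summed pluripotency markers stood at 48.8 to 52.0 CPM in *siNcor1* and 17.9 to 18.8 CPM in *siOct4*. In bulk RNA, fewer cells of a type and less RNA per cell cannot be told apart. The part of these marker differences in the results below was not tested.

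All 9 members with a row passed the filter of a mean of at least 1 CPM (read counts scaled to the library size), and the fewest reads behind any value were 165, for *Snhg12* in replicate 2 of *siOct4* at day 3. *Malat1* was the most abundant, with 16875 to 49917 reads in a library. Levels of different genes were compared per kilobase of merged exons (CPM per kb), where retained introns count as exon, so these levels are lower for genes with many retained-intron models. On this scale *Malat1* was highest in all 4 groups, with a mean between 253 CPM per kb in *siOct4* at day 6 and 459 in *siNcor1* at day 6. *Neat1*, spread over 20771 bases, was lowest in all 4, between 7.55 and 8.73 CPM per kb. Its gene lies 22.04 kb from *Malat1* on the same strand of chromosome 19.

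Among the hosts, *Gas5* had the highest mean level per length in 3 of the 4 groups, with 57.6 CPM per kb in *siNcor1* at day 3. *Snhg8* was next to it at 44.2 CPM per kb, and in *siOct4* at day 6 their order was the opposite, with 127 for *Snhg8* and 119 for *Gas5*. Their libraries overlapped there, at 113.7 and 141.2 CPM per kb for *Snhg8* against 107.7 and 130.8 for *Gas5*. With the longest transcript as the length in place of merged exons, *Gas5* ranked above *Snhg8* in that group too. *Snhg12* was the lowest host in every group, at 9.90 to 20.8 CPM per kb.

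**Figure D1:**
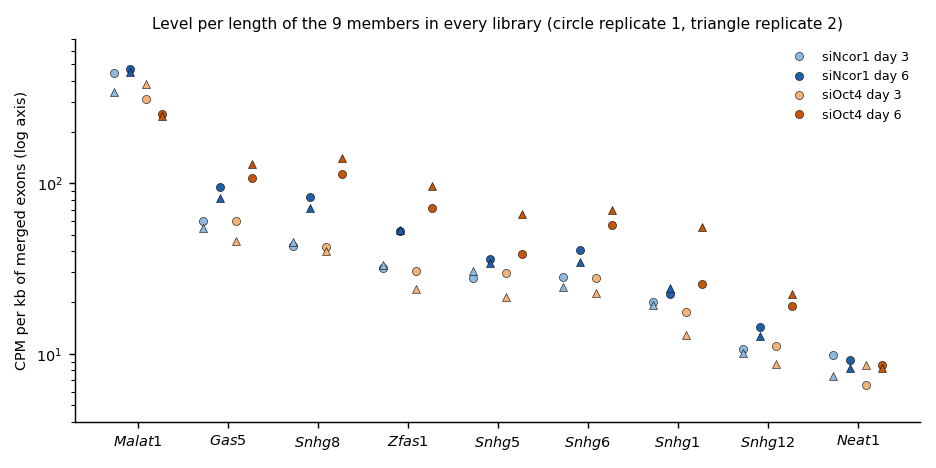
Level of each member in CPM per kilobase of merged exons (log axis) in the 8 libraries, coloured by group, with circles for replicate 1 and triangles for replicate 2. *Malat1* stood between 250.3 and 468 CPM per kb and *Neat1* between 6.56 and 9.89, with the hosts below *Malat1* in every library and highest in *siOct4* at day 6, and *Snhg12* reaching down to 8.69, within the range of *Neat1*.

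At day 6, 4 of the 7 snoRNA hosts were called higher in *siOct4* than in *siNcor1*, and *Malat1* was called lower. All 7 hosts had both *siOct4* libraries above both *siNcor1* libraries, and those that passed the test (*Snhg6*, *Snhg8*, *Zfas1* and *Snhg12*) differed by 0.61 to 0.75 on the log2 scale or 1.52 to 1.68 times. Of all 13866 genes tested, 12.1% were called higher and 18.6% lower in this comparison, and 29.9% had non-overlapping groups in the higher direction. The median difference of the hosts was 0.65 on the log2 scale, and that of all genes tested −0.03.

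*Snhg8*, the host of the H/ACA RNA Snora24, had log2-cpm values of 6.14 and 5.95 in *siNcor1* and 6.60 and 6.91 in *siOct4* at day 6. Its lowest *siOct4* library stood above its highest *siNcor1* library, and the difference was 0.71 on the log2 scale (SE 0.14, adjusted p = 0.00323, limma). *Snhg6*, the host of Snord87, had 5.55 and 5.31 in *siNcor1* and 6.03 and 6.32 in *siOct4*. Here the groups were separate too, and the difference was the largest among the hosts, at 0.75 (SE 0.16, adjusted p = 0.00517, limma). *Snhg6* overlaps the antisense gene *Mcmdc2* over 127 exon bases, and without a known strand setting reads there cannot be told apart. *Mcmdc2* itself was low, at 1.66 log2-cpm or less as a group mean, and differed by 0.32 (adjusted p = 0.547).

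*Zfas1*, with its 3 box C/D snoRNAs, had values of 7.26 and 7.29 in *siNcor1* and 7.71 and 8.14 in *siOct4*. The *siNcor1* pair was nearly equal while the *siOct4* pair was spread, and the difference was 0.65 (SE 0.16, adjusted p = 0.00976, limma). Its antisense neighbour *Znfx1*, which shares 82 exon bases with it, differed in the other direction, by −0.34 (adjusted p = 0.0514). *Snhg12* had values of 5.12 and 4.94 in *siNcor1* and 5.52 and 5.76 in *siOct4*, which is a difference of 0.61 (SE 0.16, adjusted p = 0.0130, limma).

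The other hosts pointed the same way and missed the threshold. *Gas5*, named for its accumulation in growth-arrested cells, had 8.48 and 8.27 in *siNcor1* and 8.66 and 8.94 in *siOct4*, a difference of 0.43 with an interval from 0.09 to 0.77 (adjusted p = 0.0569). *Snhg1* had 6.06 and 6.19 in *siNcor1* and 6.25 and 7.37 in *siOct4*, and *Snhg5* had 5.96 and 5.89 against 6.06 and 6.85. In both, replicate 1 of *siOct4* lay close to the *siNcor1* libraries and replicate 2 well above, and the adjusted p-values were 0.0769 and 0.0911. Replicate 2 of *siOct4* at day 6 was above replicate 1 for all 7 hosts, with a median gap of 0.31 on the log2 scale against 0.07 for all genes tested. The direction therefore did not depend on that library, since replicate 1 was also above both *siNcor1* libraries for every host, but the size did.

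*Malat1* had values of 11.67 and 11.62 in *siNcor1* and 10.80 and 10.77 in *siOct4* at day 6. Both pairs were tight and far apart, and the difference was −0.86 on the log2 scale (SE 0.19, adjusted p = 0.00691, limma), or 1.82 times lower in *siOct4*. Among all genes tested, 7.66% had a more negative difference. *Neat1* had 7.57 and 7.43 in *siNcor1* and 7.47 and 7.43 in *siOct4*, which overlap, and its difference was −0.05 with an interval from −0.40 to 0.30 (adjusted p = 0.829), and 0.05 with totals that leave out *Gm26917*. This interval ends short of the smallest difference called for a host. The log2 gap between *Malat1* and *Neat1* was 3.33 and 3.35 in *siOct4* at day 6 and between 3.91 and 4.19 in the other 6 libraries.

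**Figure D2:**
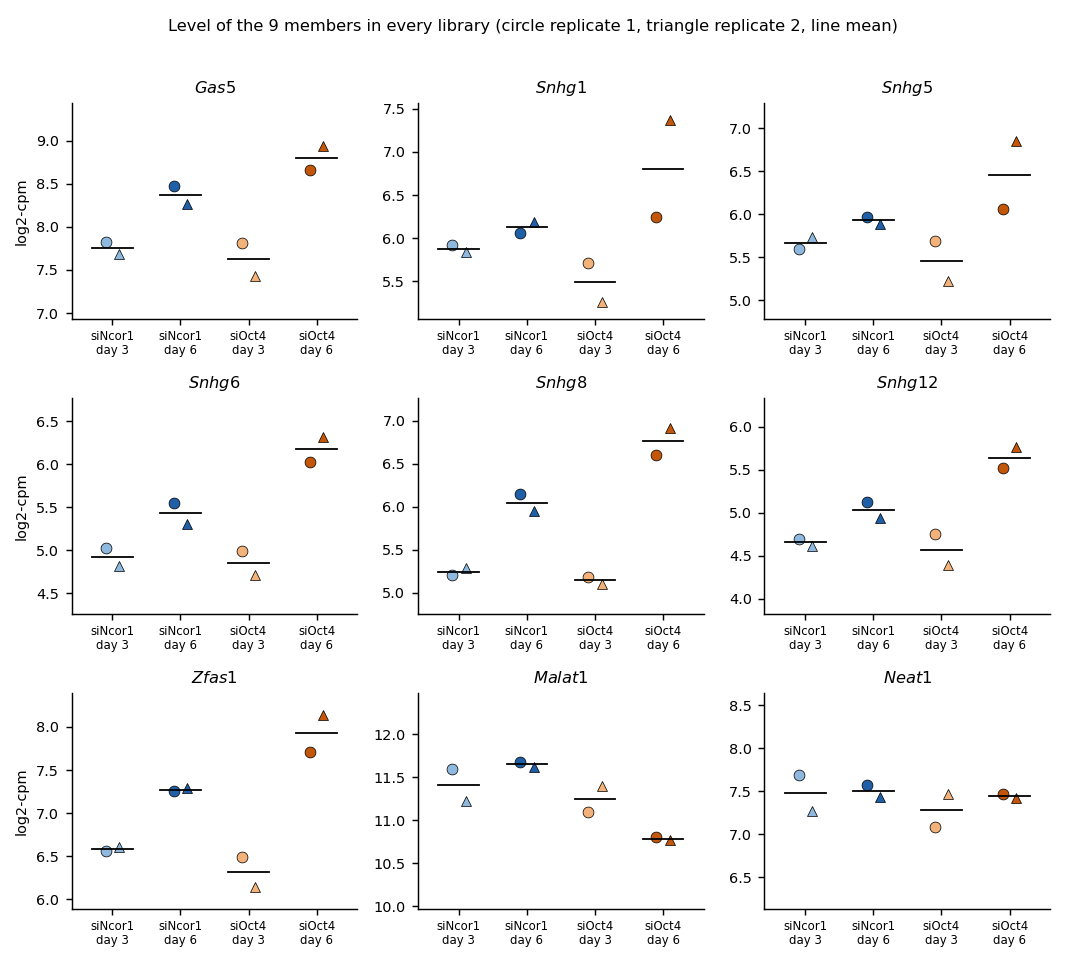
Level of each member (log2-cpm, 1 panel per gene, all panels spanning the same range) in the 8 libraries by group, with circles for replicate 1, triangles for replicate 2 and lines for the mean. The hosts were highest in *siOct4* at day 6, *Malat1* was lowest there, at 10.80 and 10.77, and *Neat1* overlapped between the groups.

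These calls rested on few libraries. Without replicate 2 of *siNcor1* at day 6 none of the 5 passed the threshold, with an adjusted p of 0.0514 for *Snhg8*, 0.055 for *Malat1*, 0.0646 for *Zfas1*, 0.0693 for *Snhg6* and 0.124 for *Snhg12*, and *Zfas1* also missed it without replicate 1 of that group (0.0529). Without replicate 1 of *siOct4* at day 6, *Gas5*, *Snhg1* and *Snhg5* passed it as well, with 0.0236, 0.000662 and 0.00269, and *Gas5* also without replicate 1 or 2 of *siOct4* at day 3 (0.0468 and 0.0478). With *Gm26917* left out of the library totals the median of all genes at day 6 moved by 0.11 on the log2 scale, all 7 hosts were called higher, and *Malat1* stayed lower by −0.76 (log2), while the calls over all genes went from 1678 higher and 2573 lower to 2416 and 2020.

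At day 3 the knockdowns could not be told apart in these genes. None of the 9 members passed the test in limma, and none had an unadjusted p under 0.05 or passed with voom on the recovered reads. Over all genes tested, 0.375% were called higher and 0.692% lower in *siOct4*. The difference was negative for all 9, between −0.39 for *Snhg1* and −0.07 for *Snhg6*, with adjusted p-values between 0.648 and 0.947. Groups did not overlap for 3 of the hosts (*Snhg1*, *Snhg8* and *Zfas1*), where 22.7% of all genes had non-overlapping groups in the lower direction. *Zfas1* had 6.56 and 6.61 in *siNcor1* and 6.49 and 6.14 in *siOct4*. Here the shallow replicate 2 of *siOct4* was below replicate 1 for all 7 hosts, with a median gap of −0.36 (log2), and without it the differences of *Snhg6*, *Gas5*, *Snhg12* and *Snhg5* changed sign, to 0.07, 0.06, 0.09 and 0.02. Without replicate 1 of *siNcor1* those of *Snhg6*, *Malat1* and *Neat1* did so, to 0.04, 0.02 and 0.01.

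From day 3 to day 6 all 7 hosts rose in *siOct4* and 4 of the 7 in *siNcor1*. In *siOct4* the rise was 1.00 (*Snhg5*) to 1.62 (*Snhg8*) on the log2 scale with a median of 1.32, in a comparison where 22.2% of all genes tested were called higher and 30.5% lower (3079 and 4233, or 4138 and 3064 when the totals leave out *Gm26917*, which moved the median of all genes by 0.20). The groups did not overlap for any of the 7, against 32.7% of all genes with non-overlapping groups in that direction. The size depended on the libraries. With each library left out in turn, the widest ranges among the hosts were 0.76 to 1.88 for *Snhg1* and 0.60 to 1.39 for *Snhg5*. In *siNcor1* 4 of the 7 passed, with a median over the 7 of 0.50, where 13.8% of all genes were called higher and 20.9% lower, and all 7 were non-overlapping against 31.4% of all genes.

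*Snhg8* had the largest estimate in *siNcor1* and, together with *Zfas1*, in *siOct4*. Its log2-cpm values were 5.20 and 5.29 at day 3 and 6.14 and 5.95 at day 6 in *siNcor1*, and 5.18 and 5.10 at day 3 and 6.60 and 6.91 at day 6 in *siOct4*. The 4 libraries of day 3 lay close together, the 4 of day 6 lay above them, and the rise was 0.80 in *siNcor1* (SE 0.14, adjusted p = 0.00121, limma) and 1.62 in *siOct4* (SE 0.14, adjusted p = 3.69e-06, limma). *Zfas1* rose from 6.56 and 6.61 to 7.26 and 7.29 in *siNcor1*, by 0.69, and from 6.49 and 6.14 to 7.71 and 8.14 in *siOct4*, by 1.61.

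*Gas5* had 7.83 and 7.69 at day 3 and 8.48 and 8.27 at day 6 in *siNcor1*, and 7.82 and 7.43 at day 3 and 8.66 and 8.94 at day 6 in *siOct4*. It rose by 0.62 in *siNcor1* (adjusted p = 0.00990, limma) and by 1.18 in *siOct4*. *Snhg6* rose by 0.50 in *siNcor1* (adjusted p = 0.0272, limma) and by 1.32 in *siOct4*. *Snhg12*, *Snhg5* and *Snhg1* did not pass in *siNcor1*, with differences of 0.38, 0.26 and 0.25 and adjusted p-values of 0.0815, 0.389 and 0.512, and all of them rose in *siOct4*, by 1.07, 1.00 and 1.32. In *siNcor1* the calls of *Snhg8* and *Zfas1* held without any 1 library. That of *Gas5* was lost without replicate 2 of day 3 (0.0943) or replicate 1 of day 6 (0.0989), and that of *Snhg6* without replicate 1 or 2 of day 3 (0.0509 and 0.191) or replicate 1 of day 6 (0.206), and without the variance trend (0.0712). *Snhg12* passed without replicate 1 or 2 of *siOct4* at day 6 (0.0447 and 0.0454), and with median centring (0.0395), quantile normalization (0.0328), totals without *Gm26917* (0.0369) and only the groups compared (0.0304).

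*Malat1* and *Neat1* were not called between the days. *Malat1* had 11.59 and 11.22 at day 3 and 11.67 and 11.62 at day 6 in *siNcor1*, a difference of 0.24 (adjusted p = 0.363), which became 0.52 and was called with quantile normalization (0.0181). In *siOct4* it had 11.09 and 11.39 at day 3 and 10.80 and 10.77 at day 6, both below the earlier libraries, with a difference of −0.46 that missed the threshold (adjusted p = 0.0658) and passed it with voom (0.0386) and without replicate 1 of *siOct4* at day 3 (0.0447). *Neat1* had 7.68 and 7.27 at day 3 in *siNcor1*, and 7.09 and 7.47 at day 3 in *siOct4*. Its spread between replicates at day 3 was wider than any difference between its groups, which were 0.02 in *siNcor1* and 0.17 in *siOct4* (adjusted p = 0.921 and 0.403). In order of the group means *Malat1* ran from *siNcor1* at day 6 (11.65) through *siNcor1* at day 3 (11.41) and *siOct4* at day 3 (11.24) to *siOct4* at day 6 (10.79), and the middle pair overlapped.

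The change with time itself differed between the knockdowns for 4 hosts. The interaction, which is the rise in *siOct4* minus the rise in *siNcor1*, was called for *Zfas1* at 0.92 on the log2 scale (SE 0.22, adjusted p = 0.0149, limma), *Snhg6* at 0.81 (adjusted p = 0.0253), *Snhg8* at 0.81 (adjusted p = 0.0139) and *Snhg12* at 0.69 (adjusted p = 0.0446). Over all genes tested, 7.77% were called higher and 12.9% lower in this test (1077 and 1790, or 1619 and 1442 when the totals leave out *Gm26917*). The largest estimate was that of *Snhg1*, at 1.08 with an interval from 0.23 to 1.92, which did not pass (adjusted p = 0.0679). *Malat1* had an interaction of −0.70 (adjusted p = 0.0921), called with quantile normalization at −0.83 (0.0153), and *Neat1* of 0.14 (adjusted p = 0.692). Without replicate 2 of *siNcor1* at day 3 or at day 6, or replicate 2 of *siOct4* at day 3, none of the 4 hosts kept its call, with adjusted p-values of 0.0556 to 0.186. *Snhg6* and *Snhg12* missed it without replicate 1 of *siNcor1* at day 3 (0.0871 and 0.116), and *Snhg12* also without replicate 1 of *siNcor1* or replicate 2 of *siOct4* at day 6 (0.0687 and 0.0743). Without replicate 1 of *siOct4* at day 6, *Snhg1*, *Snhg5* and *Gas5* passed (0.000574, 0.00368 and 0.0313), and *Gas5* also without replicate 1 of *siOct4* at day 3 (0.0469).

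**Figure D3:**
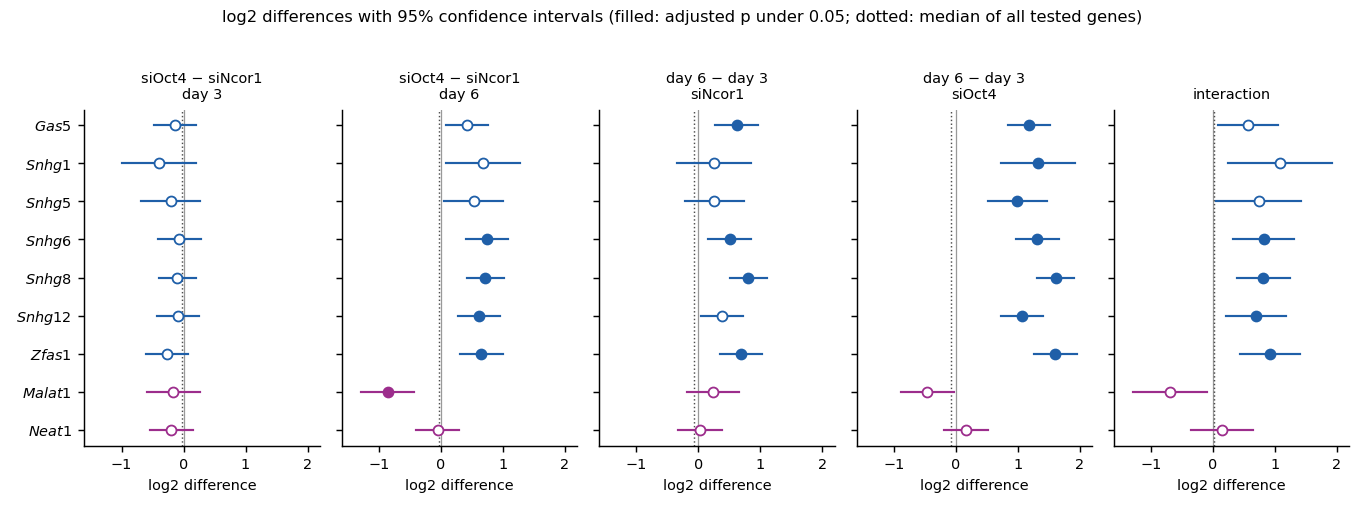
log2 differences of the 9 members (points) with 95% confidence intervals (lines) in the 5 comparisons, with filled points for an adjusted p under 0.05 in limma and a dotted line at the median of all genes tested. All 7 hosts lie right of 0 in the day 6, time and interaction panels, and *Malat1* is called at day 6, at −0.86.

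Summed over the 7 hosts, the level was 524.3 and 505 CPM in *siNcor1* and 513 and 399 CPM in *siOct4* at day 3. At day 6 it was 791 and 728 CPM in *siNcor1* and 964 and 1309 CPM in *siOct4*. *Malat1* stood at 4.13 to 6.73 times this sum in the 6 libraries other than *siOct4* at day 6, and at 1.85 and 1.34 times in that group. Across the 8 libraries the hosts followed each other, with Pearson's r between 0.863 and 0.996 over 21 pairs and a median of 0.971. *Malat1* had r between −0.60 and −0.43 with the hosts, and *Neat1* between 0.0058 and 0.208. These values describe 8 libraries that also differ in day, in depth and in the share of *Gm26917*, and carry no test.

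**Figure D4:**
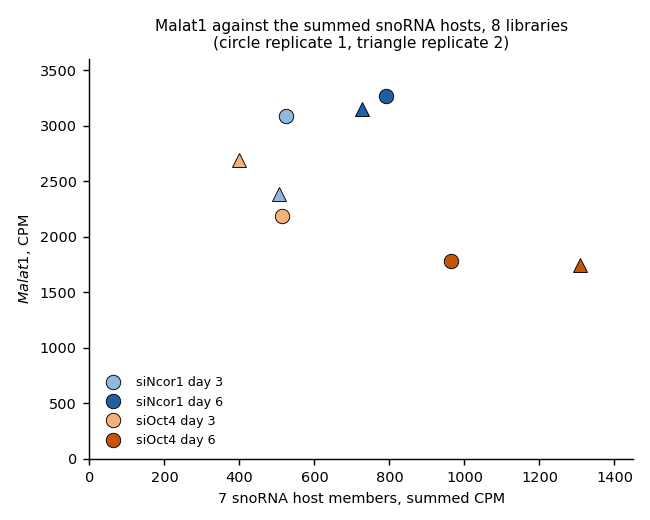
Level of *Malat1* (CPM) against the summed level of the 7 snoRNA hosts (CPM) in the 8 libraries, coloured by group, with circles for replicate 1 and triangles for replicate 2; both axes start at 0. The *siOct4* libraries of day 6 stand alone at the lower right, with 964 and 1309 CPM of hosts and 1783 and 1748 CPM of *Malat1*.

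By the same measure over 13857 other genes tested, the genes most like the mean of the hosts were *Sf3b6*, which encodes a subunit of the splicing factor SF3b (r = 0.997), *Magoh*, of the exon junction complex (r = 0.994), and *Washc3* (r = 0.994). The genes most like *Malat1* were *Fam50a* (r = 0.975), *Nrp2*, a co-receptor of semaphorins (r = 0.973), and *Thbd*, which encodes thrombomodulin (r = 0.969). Those most like *Neat1* were *Pcdhb20*, *Akap8l* and *Klhdc8b*, with r of 0.909, 0.883 and 0.877. These r values cannot be ranked between the profiles, since that of the hosts was a mean over several genes and the others were single genes.

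Counts of calls in this list and those below stand beside the shares of all genes tested. At day 6, 12.1% were called higher and 18.6% lower in *siOct4*. With time these shares were 13.8% and 20.9% in *siNcor1* and 22.2% and 30.5% in *siOct4*. Other non-coding snoRNA hosts, not among the 10, were listed by name. At day 6, 6 of 11 were called higher in *siOct4* and 1 was called lower, with a median of 0.64 on the log2 scale. *Snhg10* differed by 1.27 (adjusted p = 0.00721), *Snhg20* by 0.93, *Epb41l4aos* by 0.84, *Snhg15* by 0.82, *Snhg4* by 0.71 and *Snhg17* by 0.53. *Snhg20* had log2-cpm values of 4.94 and 4.77 in *siNcor1* and 5.79 and 5.79 in *siOct4*. *Snhg18* was the one called lower, by −0.60 (adjusted p = 0.0435), and *Dancr*, *Snhg9*, *Snhg11* and *Snhg14* did not pass. From day 3 to day 6, 10 of 11 rose in *siOct4* with a median of 1.45, and 6 of 11 in *siNcor1* with a median of 0.54. The one that did not in *siOct4* was again *Snhg18*, at −0.05.

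Protein-coding genes that carry snoRNAs in their introns were mostly not called. At day 6, 3 of 16 were called higher in *siOct4*, namely *Rcc1*, the exchange factor of RAN (0.90), *Nop56* (0.62) and *Tbrg4* (0.55), and the median of the 16 was 0.13. From day 3 to day 6 in *siNcor1*, 2 of 16 fell, *Ncl* by 0.85 and *Rcc1* by 0.67 on the log2 scale, and none rose in limma, at an unadjusted p under 0.05 or with voom. Their median in *siNcor1* was −0.22, where that of the host members was 0.50.

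Of 17 genes of proteins that bind or assemble snoRNAs, 12 were called higher in *siOct4* at day 6, and the median of the 17 was 0.62. The largest differences were those of *Ruvbl2*, an ATPase of the assembly machinery (0.87), *Nhp2* and *Nop10*, core proteins of H/ACA particles (0.78 and 0.76), and *Nolc1*, a chaperone of the nucleolus (0.70). *Nop56* and *Nop58*, of the C/D core, were called as well, whereas *Fbl*, the methyltransferase, just missed the threshold at 0.39 (adjusted p = 0.0508). With time in *siNcor1*, 2 of the 17 were called higher and 4 lower with a median of −0.22, and in *siOct4* 8 were called higher with a median of 0.34. In *siNcor1*, *Nolc1* and *Naf1* fell by 0.73 and 0.75 on the log2 scale, and *Znhit3* rose by 1.07. The lowest estimate of the 17 there, −0.86, was that of *Gar1*, also of the H/ACA core. Its log2-cpm values went from 4.95 and 4.91 at day 3 to 4.35 and 3.79 at day 6.

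Of 54 rows for small nuclear and nucleolar RNAs, 32 passed the filter. More of them were called between the days than between the knockdowns. From day 3 to day 6, 14 of 32 rose and 1 fell in *siNcor1*, with a median of 0.82, and 18 rose in *siOct4*, with a median of 1.03. *Terc*, the RNA of telomerase, rose by 4.23 on the log2 scale in *siOct4*, from 4.55 and 3.21 to 8.52 and 7.69. *Scarna13* rose by 2.92 and *Scarna2* by 2.26 in *siOct4*, and *Snora57* rose by 2.10 in *siNcor1*. At day 6, 2 of 32 were higher in *siOct4*, *Scarna13* by 0.90 and *Snord104* by 0.63. None of the 32 was called in the interaction in limma or with voom, and 3 had an unadjusted p under 0.05 there, all higher.

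Genes of the protein partners of *Neat1* and *Malat1* were listed in the same way, and their RNA was measured, not the proteins. None of 14 genes of paraspeckle proteins was called between the knockdowns at day 6 in limma or with voom. An unadjusted p under 0.05 was found for 3 of them, all higher in *siOct4*. With time, 8 of 14 fell in *siNcor1* and 5 of 14 in *siOct4*, where 20.9% and 30.5% of all genes tested were called lower. The count in *siOct4* is near that share. *Taf15* fell by 0.91 and 0.79 on the log2 scale and *Hnrnpk* by 0.59 and 0.41 in *siNcor1* and *siOct4*, and *Sfpq* fell by 0.75 in *siNcor1*. *Neat1* differed by 0.02 and 0.17 in these comparisons and was not called. Among 18 genes of SR and speckle proteins, 2 were higher in *siOct4* at day 6, *Srsf2* by 0.70 and *Rnps1* by 0.61. That count is near the 12.1% of all genes tested that were called higher. With time in *siNcor1*, 10 of the 18 fell, where 20.9% of all genes tested were called lower. In *siOct4*, 3 of the 18 were called higher and 4 lower with time, with a median of 0.10. Of all genes tested, 22.2% were called higher and 30.5% lower there. The highest estimate, 1.05, was that of *Srsf3*, from 7.06 and 7.03 to 7.74 and 8.46 log2-cpm. *Son*, which encodes a scaffold of the speckles that *Malat1* occupies, fell by 0.60 in *siNcor1* and by 0.84 in *siOct4*, and *Srrm2* by 0.48 and 0.57.

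The genes of 14 factors of nonsense-mediated decay, the route that removes many spliced host transcripts, were listed too. Of these, 2 were higher (*Smg9* by 0.70 and *Magoh* by 0.59) and 1 lower (*Upf2* by −0.39) in *siOct4* at day 6. *Smg1*, the kinase of the route, fell with time by 0.82 on the log2 scale in each knockdown, and *Upf2* by 0.54 in *siNcor1* and 0.93 in *siOct4*. In the time comparison 5 of 14 fell and 1 rose in *siNcor1*, and 5 fell and 3 rose in *siOct4*, where 30.5% of all genes tested were called lower and 22.2% higher, so the count in *siOct4* is near that of all genes.

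Of 17 other long non-coding RNAs, 1 was higher and 6 were lower in *siOct4* at day 6, with a median of −0.30. They were listed by name, and where in the cell they lie was not measured. *H19*, an imprinted RNA, had the largest difference, from 10.47 and 10.63 in *siNcor1* to 8.03 and 8.32 in *siOct4*, or −2.37. *Dnm3os* and *Mirg*, hosts of microRNAs, differed by −0.87 and −0.84. *Miat*, which also gathers in nuclear bodies, went the other way, from 2.35 and 1.36 to 4.40 and 3.86, by 2.27 (adjusted p = 0.00127). *Meg3* and *Rian*, imprinted neighbours of *Mirg*, fell with time in *siOct4* by 1.40 and 1.27 on the log2 scale.

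**Figure D5:**
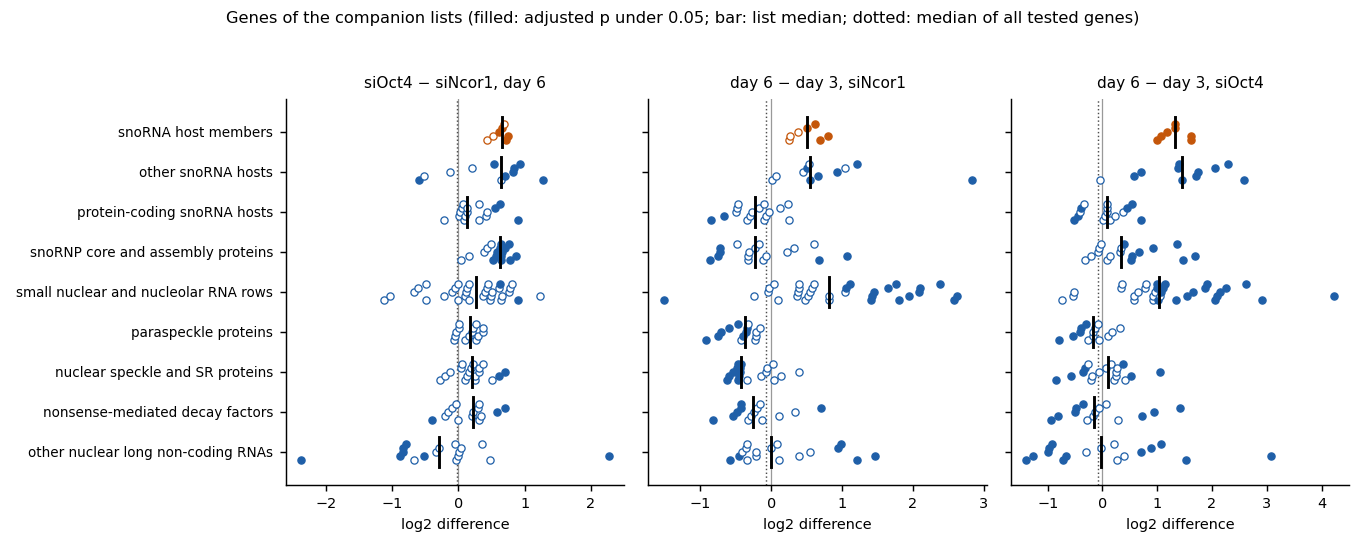
log2 differences of the genes of each list (points, filled for an adjusted p under 0.05 in limma) with the list median (bar) and the median of all genes tested (dotted line), at day 6 between the knockdowns and from day 3 to day 6 in each. The host members have medians of 0.65, 0.50 and 1.32, and the other non-coding hosts of 0.64, 0.54 and 1.45, while the protein-coding hosts have 0.13, −0.22 and 0.08.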

How the data were processed

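The authors depleted ribosomal RNA from 200 ng of total RNA, amplified the libraries for 10 cycles, sequenced paired reads of 43 bases and, per the labels' processing notes, aligned them with STAR 2.5.2b to mm10 and used edgeR 3.20.9. The deposited values are log2-cpm. The counting tool, annotation and strand setting are not given in the sources used here. Removing a constant on the linear scale gave whole reads (tolerance 0.1 read) for 100% of values, and 3 reads are 0.174 to 0.380 CPM.

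GENCODE M21 held the identifiers of 18969 of the 18990 genes, and the 13866 with a mean of at least 1 CPM were tested with limma 3.58.1 in R 4.3.3 (lmFit and eBayes with a variance trend) on the deposited log2 values, the 4 groups in 1 fit, with Benjamini-Hochberg adjustment at 0.05 over all genes tested. Intervals are 95%. The p-values rest on 2 libraries per group. The study's own tests used DESeq2 against a control and were not repeated here. The members and lists were chosen with earlier results of these data known. All members were named. From each list, up to 4 called genes with non-overlapping groups and the largest differences were named per comparison, other snoRNA hosts without limit; *Fbl* and *Nop58* were named outside this rule, after their values were seen, and the siRNA targets and antisense neighbours as checks. On simulated reads for the day 6 comparison (13881 genes), 19.4% of 72 genes changed by 0.5, 81.6% of 76 changed by 1 and 98.0% of 51 changed by 2 on the log2 scale were recovered, with 5.26% false among 133 calls. Alternatives were no trend, median centring, quantile normalization, totals without *Gm26917*, no filter, at least 10 CPM, pseudocounts of 0.1 and 1, a replicate block, only the groups compared, each library left out, and voom. Figures were drawn with matplotlib 3.10.9.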

Additional observations from a re-analysis of the deposited data

Results flagged for a closer look

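The difference between the knockdowns changed from day 3 to day 6 for 4 snoRNA hosts by a test of the change itself (interaction, limma). The interaction was 0.9188 on the log2 scale for *Zfas1* (adjusted p = 0.0149), whose rise with time was 1.61 in *siOct4* and 0.69 in *siNcor1*. It was 0.8141 for *Snhg6* (adjusted p = 0.0253), with rises of 1.32 and 0.50, and 0.8136 for *Snhg8* (adjusted p = 0.0139), with rises of 1.62 and 0.80. For *Snhg12* it was 0.6929 (adjusted p = 0.0446), with a called rise of 1.07 in *siOct4* and a difference of 0.38 in *siNcor1* that was not called. Over all 13866 genes tested 7.77% were called higher in this test. With 2 libraries per group, none of the 4 held when replicate 2 of *siNcor1* at day 3 was left out.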

How the results depend on the processing

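For 45 differences of the 9 members, 846 values were computed under alternatives. Of these, 763 kept direction and side of the threshold, 32 kept the direction and lost the call, 36 kept the direction and gained a call, and 15 changed direction, 10 of them for *Neat1* or *Malat1*. The rise of all 7 hosts with time in *siOct4* was called under every alternative listed. At day 6, 8 members were called with median centring, 8 with quantile normalization and 8 with totals without *Gm26917*, against 5. *Neat1* at day 6 turned to 0.0005642 with quantile normalization and 0.05256 with totals without *Gm26917*. In the interaction, 1 member was called without the variance trend, against 4, and *Snhg12* was lost without the filter (adjusted p = 0.0575), while 6 hosts were called with median centring and 6 with totals without *Gm26917*. At day 3, 148 of all genes were called, 43 without the trend and 81 with a mean of at least 10 CPM. The cause of these changes was not tested.

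With a library left out, the lone library of its group is assumed to vary like the others. Members called then ranged from 0 to 8 at day 6, 0 to 7 in the interaction and 2 to 5 with time in *siNcor1*. All genes called ranged from 3 to 375 at day 3, 1398 to 4669 at day 6, 1009 to 3667 in the interaction and 2360 to 5954 with time in *siNcor1*. At day 3 the log2 differences ranged from −0.2108 to 0.07293 for *Snhg6*, −0.3293 to 0.05811 for *Gas5*, −0.2602 to 0.09157 for *Snhg12*, −0.4398 to 0.02026 for *Snhg5*, −0.3506 to 0.02054 for *Malat1* and −0.4026 to 0.01232 for *Neat1*. Those of *Neat1* ranged from −0.1227 to 0.01676 at day 6, −0.1829 to 0.232 with time in *siNcor1*, −0.02426 to 0.3576 in *siOct4* and −0.0653 to 0.3496 in the interaction.

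The labels link replicates between groups only by a number, and the correlations of their deviations lay between −0.0395 and 0.281. Replicate 1 was above replicate 2 in all 4 groups for *Gm26917*, *Terc* and *Scarna2*, and below it in all 4 for *Snord17*. Whether libraries of the same number were handled together was not tested. Adding the replicate block, 6 members were called at day 6 (5 without it) and 8 with time in *siOct4* (7 without it), with *Gas5* at an adjusted p of 0.0416 and *Malat1* at 0.0457, and no other call of a member changed. The depth was at least 165 reads for every value of a member, and the share of counting error in the spread between libraries was not computed.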
